A study of Mus musculus with 6 samples.

Results

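Epineurial fibroblasts of the newborn sciatic nerve were picked from single-cell counts of postnatal day 1 (P1) by the genes they expressed, with no clustering. Among cells with at least 5 unique molecular identifiers (UMIs, one per captured RNA molecule) of the collagen gene Col1a2, a cell was taken when Pi16, Dpt and Ly6a summed to at least 4 UMIs. Cells with a UMI of Meox1, Cdkn2b, Mki67, Top2a, Sox10, Pecam1 or Ptprc were left out, as were cells with more than 1 UMI of Lypd2, Itgb4 and Cldn1 together. The rule took 1016 cells, namely 307, 346 and 363 in P1 replicates 1, 2 and 3, out of 9049 P1 cells with at least 5 Col1a2 UMIs, 11735 kept P1 cells and 24337 kept cells in the series.

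A peripheral nerve is wrapped by connective tissue in layers. The endoneurium surrounds the axons and Schwann cells, the perineurium is a barrier of flat cells around each bundle, and the epineurium is the loose outer sheath that holds blood vessels, fat and collagen fibres. Pi16 and Dpt mark fibroblasts of outer, adventitial connective tissue in many organs, and Ly6a (Sca-1) is a surface protein of mesenchymal cells with progenitor features. Fibroblasts of this kind are known for elastic microfibrils, secreted growth factors and modulators of Wnt signalling.

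The series holds 6 libraries of dissociated mouse sciatic nerve, 3 at P1 and 3 at postnatal day 60 (P60), made with a droplet method that counts the 3' ends of transcripts. All mice, on a C57bl/6J background, carried a Schwann cell Cre transgene that switched on the ReYFP reporter, so that Schwann cells were marked with eYFP, and βAct-DsRed, in which the chicken beta actin promoter drove DsRed in all cells. Each suspension pooled males and females 1:1 and was sorted for DsRed, and at P1 part of the eYFP-positive Schwann cells were sorted out as well. There was no treatment, and the labels name the 3 libraries of each age as biological replicates.

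The libraries held 20203440 to 30334608 UMIs. The median P1 epineurial fibroblast had 6556, 6083 and 6475 UMIs in the 3 libraries, against 7344, 6519 and 7346 in the other Col1a2 cells. In 1.30% to 1.65% of them more than 10% of UMIs were mitochondrial, compared with 12.7% to 17.2% of the other Col1a2 cells. Pearson correlations of log2 expression across genes were 0.990 to 0.991 between the P1 libraries for these cells. Pairs of P1 libraries shared 14 to 26 barcodes of all those deposited, and no barcode was selected in both libraries of a pair. Among the P60 libraries, replicate 3 stood apart (0.963 to 0.965 with the others, against 0.996 between those), so results on age are given without it where it mattered.

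Values are given as the UMIs of a gene per 1000000 UMIs of the summed cells of a library (CPM). They are compared between cell groups for one gene at a time. The levels of the 3 genes that chose the cells are a description only. Pi16, which encodes a secreted peptidase inhibitor family protein, stood at 632, 713 and 685 CPM in the selected cells and at 26.5, 33.6 and 33.8 CPM in the other Col1a2 cells. Dpt, encoding the matrix protein dermatopontin, stood at 522, 522 and 466 CPM against 19.5, 17.5 and 19.7 CPM. Ly6a stood at 1931, 2057 and 2025 CPM against 103, 108 and 95.1 CPM. These genes lie on chr17:29317680-29330593 (Pi16), chr1:164796644-164824266 (Dpt) and chr15:74994877-74998031 (Ly6a) of GRCm38.

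The summed Pi16, Dpt and Ly6a count had a median of 16 UMIs per cell with quartiles of 8 and 30 and a range of 4 to 158. All 3 genes were found in 474 cells (46.7%), Pi16 with Ly6a in 234 (23.0%), Dpt with Ly6a in 142 and Ly6a alone in 111 (10.9%). Ly6a was found in the largest share of cells, at 94.6% ± 0.979 of cells (SD, n = 3 libraries), followed by Pi16 at 71.2% ± 1.19 and Dpt at 65.3% ± 5.18. Just inside the threshold were 59 cells with a sum of 4, and just outside were 77 cells with a sum of 3 that met every other condition. Pooled over libraries, Sfrp2 stood at 636 CPM in the former and 420 CPM in the latter, Plac8 at 541 and 469 CPM, and Cd34 at 465 and 480 CPM. Ly6c1 stood at 114 and 112 CPM. On these genes the cells on either side of the threshold were close.

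Among the 8033 other Col1a2 cells, 7611 (94.7%) had too low a sum, 26.3% had Meox1 or Cdkn2b, 20.8% had too many Lypd2, Itgb4 and Cldn1 UMIs, 22.2% had Mki67 or Top2a, and 29.5% had Sox10, Pecam1 or Ptprc. A cell could fail on several conditions, and 1898 (23.6%) failed on the sum alone. This group was therefore a mixture. Its summed level of 10 Schwann cell genes was 8815 to 9479 CPM, against 668 to 1252 CPM in the epineurial fibroblasts. A pair of cleaner comparators were drawn from it. The first, 1277 cells, had Meox1 or Cdkn2b and a sum of at most 3, and carried Sox9 and Col2a1, the study's endoneurial markers. The second, 819 cells, had at least 2 UMIs of Lypd2, Itgb4 and Cldn1, no Meox1 or Cdkn2b and a sum of at most 3, and carried the perineurial genes Slc2a1 and Msln.

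The label was first checked against markers that the rule did not read. The markers Sfrp2, Sfrp4 and Plac8 had been named for these cells from the same data and are described here without a test. They do enter counts of listed genes below. Sfrp2, a secreted Wnt modulator on chr3:83766321-83774316, stood at 572, 575 and 515 CPM in epineurial fibroblasts, at 47.1 to 50.7 CPM in the other Col1a2 cells, and at 8.32 to 28.4 CPM in the Meox1/Cdkn2b and Lypd2/Itgb4/Cldn1 cells. Its relative Sfrp4 stood at 604, 539 and 421 CPM against 93.9 to 97.0 CPM in the other Col1a2 cells, 14.5 to 44.8 CPM in the Meox1/Cdkn2b cells and 127 to 149.6 CPM in the Lypd2/Itgb4/Cldn1 cells. Plac8 stood at 543, 652 and 675 CPM against 54.5 to 63.7, 10.5 to 12.7 and 41.8 to 89.5 CPM. In each of these, no library of a comparator reached the lowest library of the epineurial fibroblasts.

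Ly6c1 and Pcolce2, which the study uses for epineurial cells, were tested with the genes of the rule left out. Ly6c1, a surface protein gene of the Ly6 family on chr15:75044018-75048830, stood at 391, 397 and 387 CPM in epineurial fibroblasts and at 33.7, 30.1 and 32.0 CPM in the other Col1a2 cells. Its log2 change was 3.87 ± 0.05 (SE, edgeR quasi-likelihood test with Benjamini-Hochberg adjustment, adjusted p = 3.6e-102). Its near relative Ly6a was part of the rule. How reads that match both paralogs were counted is not given in the sources used here, which leaves the Ly6c1 value uncertain. Pcolce2, an enhancer of procollagen processing, stood at 37.0, 24.9 and 46.8 CPM against 3.20, 3.64 and 4.17 CPM (log2 change 3.55 ± 0.17, adjusted p = 1.1e-40). Both genes were higher in 3 of 3 libraries, with no overlap.

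**Figure D1:**
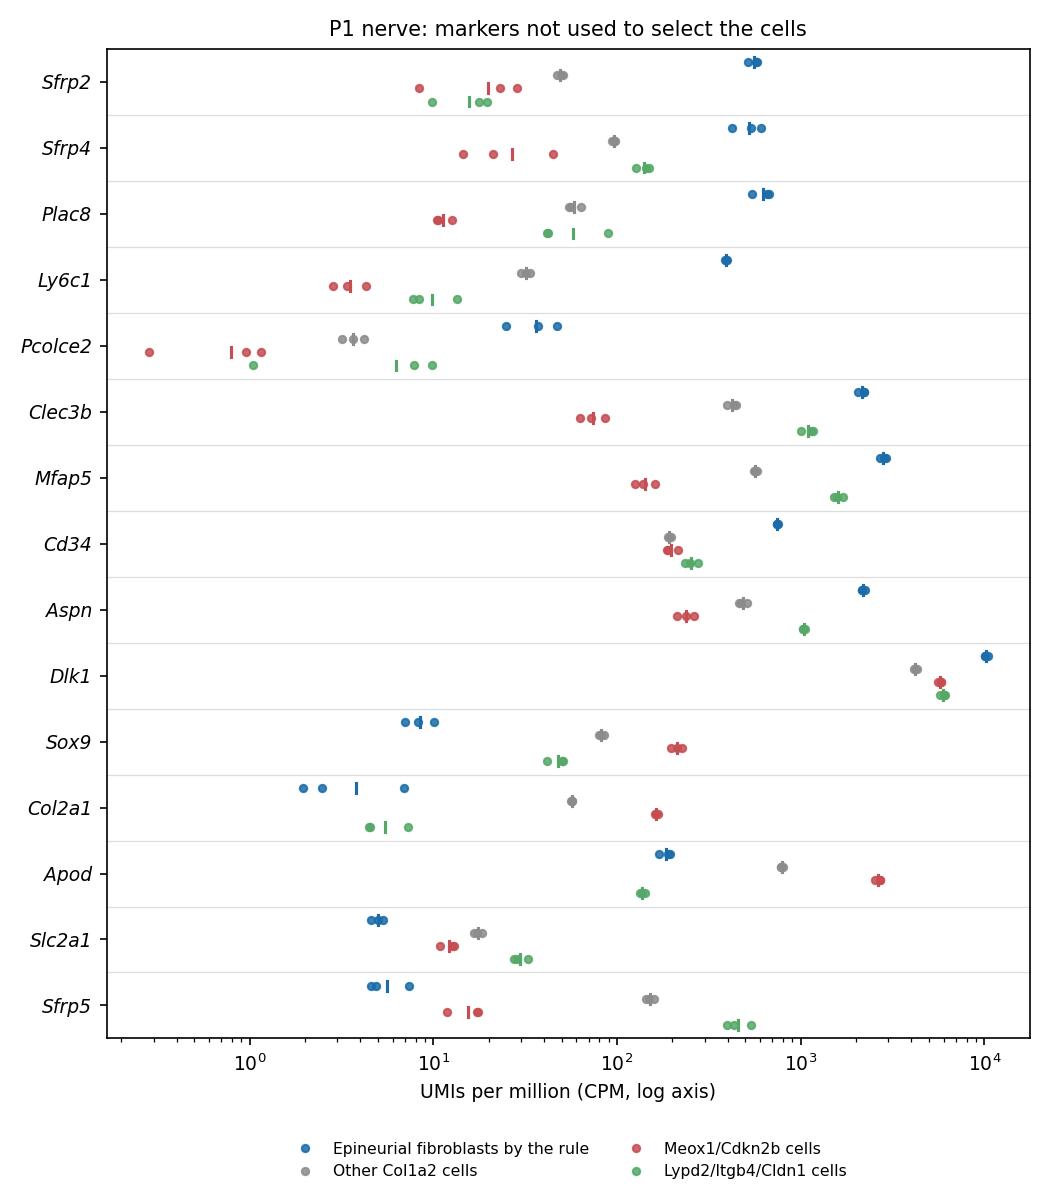
CPM (log axis) of 15 genes outside the selection rule in P1 epineurial fibroblasts, the other Col1a2 cells, the Meox1/Cdkn2b cells and the Lypd2/Itgb4/Cldn1 cells, with a point per library and a tick at the mean of the 3 libraries. From Sfrp2 to Dlk1 every epineurial point lies to the right of all other points of that gene, and for Sox9, Apod, Slc2a1 and Sfrp5 a comparator lies further right, for example Apod at 2546 to 2696 CPM in the Meox1/Cdkn2b cells against 169.7 to 193 CPM.

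The share of cells with a UMI gave the same order. Each cell was thinned to 3000 UMIs, which kept 990 of the 1016 epineurial fibroblasts. Sfrp2 was then found in 57.9% ± 2.18 of epineurial fibroblasts, 6.87% of the other Col1a2 cells and 0% of Ptprc-positive immune cells, which should lack it. Plac8 was found in 63.7% ± 3.28, 9.17% and 10.4%, and Ly6c1 in 54.6% ± 0.564, 5.34% and 0.691%. Plac8 is also known from leukocytes, so cells with Sox10, a Schwann cell factor, were read as well. Only 61 of them, with a median of 4556.5 UMIs before thinning, remained, and there the shares were 0% for Sfrp2, 2.68% ± 2.35 for Plac8 and 8.83% ± 8.70 for Ly6c1. The other Col1a2 cells thus lay below the immune cells for Plac8 and below the Sox10 cells for Ly6c1. These references therefore do not tell the low shares of that group as a whole from background. The group also held the 77 cells with a sum of 3, where Plac8 stood at 469 CPM and Ly6c1 at 112 CPM. The epineurial fibroblasts lay above both references for all 3 genes. Pcolce2 was found in 9.45% ± 2.12 of epineurial fibroblasts and 1.03% of the other Col1a2 cells. Without thinning the shares in epineurial fibroblasts were 72.4% for Sfrp2, 73.9% for Plac8, 68.9% for Ly6c1 and 15.3% for Pcolce2, at a median of 6346 UMIs per cell, against 6441.5 UMIs in the immune cells.

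UMIs of Schwann cell and immune genes were concentrated in few epineurial fibroblasts. The Schwann cell gene Mbp had 740 of its 1284 UMIs (57.6%) in 10 of the 1016 cells, and the median cell held 0. The immune gene Lyz2 had 86.0% of its UMIs in 10 cells. The markers Adipoq (fat), Scx (tendon), Myod1 (muscle) and Msln (perineurium) were at 0 UMIs in the epineurial fibroblasts of every P1 library. Other genes of their lists were not. Myod1 was also at 0 in the other Col1a2 cells, and Scx in both the Meox1/Cdkn2b and the Lypd2/Itgb4/Cldn1 cells. The zeros of Myod1 and Scx thus do not set the epineurial fibroblasts apart from those groups. Summed CPM of 6 tendon genes was 26.7 to 45.6, against 494 to 516 in the other Col1a2 cells. That of 13 perineurial genes was 29.2 to 34.8 against 152 to 160. Summed CPM of 8 adipocyte genes, 2 of them at 0 (Adipoq and Car3), was 701 to 828 in epineurial fibroblasts and 208 to 271 in the other Col1a2 cells. Of the 5 that could be tested Cdo1, Pparg, Lpl and Cebpa were higher and Fabp4 was lower. Most of the sum was Lpl, at 561, 680.3 and 664 CPM against 68.9 to 84.7 CPM. Summed CPM of 7 muscle genes was 18.9 to 27.2 against 11.1 to 15.4, with Des higher and 3 others not called. Summed CPM of 8 immune genes was 38.9, 279.8 and 43.9, with replicate 2 high. The part of such UMIs in the results was not tested.

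Against the other Col1a2 cells, 3604 of 13937 genes (25.9%) were higher in epineurial fibroblasts and 3935 (28.2%) were lower at an adjusted p under 0.05, which made 54.1% called. The 3 library values of both groups did not overlap for 17.9% of genes on the higher side and 48.3% on the lower side. With library size in place of TMM scaling the split was 2264 higher and 5972 lower, and the median gene moved from a log2 change of -0.03 to -0.28. Of 16 cell cycle genes 15 were lower and Mcm6 was not called, and of 10 Schwann cell genes 9 were lower and S100b was higher. The rule left out cells with Mki67, Top2a or Sox10, so nothing is read from these lists. Among genes of at least 20 CPM the highest log2 change was that of Akr1c18, an aldo-keto reductase that inactivates progesterone, on chr13:4132615-4150654. It stood at 97.3, 90.2 and 135 CPM against 1.25, 3.11 and 3.14 CPM (log2 change 5.67 ± 0.14, adjusted p = 3.4e-24). Its UMIs came from 88 of 1016 cells (8.66%), so it marked a minority of the epineurial fibroblasts. Of 13 genes induced by dissociation 8 were higher and 2 lower (Hspa1a and Nr4a1), and with library size scaling 3 were higher and 4 lower. Fos, the most abundant of them, stood at 2288, 2146 and 2449.9 CPM against 2175 to 2306 CPM, with overlap. The part of this response in the results was not tested.

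Efemp1 (fibulin-3, a microfibril-associated protein) stood at 164, 173 and 175 CPM against 12.0 to 14.1 CPM, and Thy1 (CD90, a fibroblast surface protein) at 99.2, 118 and 103 CPM against 8.24 to 8.76 CPM. Wnt10b, a Wnt ligand known for restraining fat cell formation, stood at 22.9, 21.6 and 20.7 CPM against 0.844 to 1.46 CPM. Hsd11b2, which inactivates glucocorticoids, stood at 33.6, 44.2 and 36.0 CPM against 2.37 to 3.05 CPM. The groups did not overlap for any of these 4 genes, and their adjusted p-values ran from 6.5e-83 for Efemp1 to 3.3e-36 for Wnt10b. Krtdap, Lrrn4cl, Cbln2 and Pcsk6 were the others among the 10 highest, with Ly6c1.

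Against the Meox1/Cdkn2b cells 2900 genes were higher and 2894 lower (26.4% each, 52.8% in all), and libraries did not overlap for 21.8% on the higher and 38.1% on the lower side. Against the Lypd2/Itgb4/Cldn1 cells 1978 were higher (19.6%) and 1935 lower (19.1%, 38.7% in all), and libraries did not overlap for 15.8% and 33.3%. All counts of listed genes against these comparators are to be read beside these shares. With library size scaling the splits were 2215 higher and 3814 lower, and 1402 higher and 2879 lower, with the median gene at -0.15 and -0.16. Akr1c18 had 3 UMIs in the Meox1/Cdkn2b cells and 2 in the Lypd2/Itgb4/Cldn1 cells, for ratios of 408 (95% exact counting interval 139 to 1981) and 335 (92.3 to 2769). These intervals take each UMI as independent, although 10 epineurial fibroblasts held 265 of the 723 Akr1c18 UMIs. The intervals thus cover counting error only.

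Genes expressed in fibroblasts of outer connective tissue formed a list of 30 that included Sfrp2, Sfrp4 and Plac8. Against the Meox1/Cdkn2b cells 28 of the 30 were higher, with a median log2 change of 3.11, beside 26.4% higher and a median of 0.0 among the 10969 genes tested. Only Limch1 was lower, and Bmp7 stood at 28.5 to 28.7 CPM against 29.0 to 34.7 CPM and was not called. Against the Lypd2/Itgb4/Cldn1 cells 27 of the 30 were higher, with a median of 1.77, beside 19.6% of 10108 genes. Ackr3 and Igfbp6 were lower there, and Limch1 was not called. The list was drawn up with earlier results of these data known and is not independent evidence of its direction.

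Within that list Mfap5, a microfibril protein, stood at 2708, 2902 and 2846 CPM in epineurial fibroblasts, 125 to 161 CPM in the Meox1/Cdkn2b cells and 1511 to 1697 CPM in the Lypd2/Itgb4/Cldn1 cells. The log2 changes were 4.47 ± 0.04 and 0.97 ± 0.04. Clec3b, encoding the plasminogen-binding protein tetranectin, stood at 2053, 2217 and 2207 CPM against 62.7 to 85.6 and 1000.4 to 1169.7 CPM. Both genes thus separated the epineurial fibroblasts from the Lypd2/Itgb4/Cldn1 cells by a smaller step. Cd34, a sialomucin of progenitor and adventitial cells, stood at 739, 739.7 and 750.3 CPM against 186 to 215 and 235 to 276 CPM, about equally far from both. Igfbp6, which binds IGF2, stood between its comparators at 1537, 1533 and 1409 CPM, above the 304 to 379 CPM of the Meox1/Cdkn2b cells and below the 3814 to 4079 CPM of the Lypd2/Itgb4/Cldn1 cells. Adjusted p-values of these 4 genes ran from 2.1e-07 to 1e-31.

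Genes of elastic fibres and microfibrils, the scaffold that lets a sheath stretch, were mostly higher. Against the Meox1/Cdkn2b cells 16 of 20 were higher and 3 lower (Fbn2, Efemp2 and Loxl2), with a median log2 change of 2.01. Against the Lypd2/Itgb4/Cldn1 cells 13 were higher and 4 lower, with a median of 0.61. Mfap4, an elastic fibre glycoprotein, stood at 1103, 1070.1 and 1087 CPM against 75.6 to 95.6 and 317 to 428 CPM. No comparator library reached an epineurial one. Eln, encoding elastin, stood at 909, 950 and 898 CPM against 161 to 213 CPM in the Lypd2/Itgb4/Cldn1 cells (log2 change 2.50 ± 0.06, adjusted p = 4.2e-36). Fbn1, the main fibrillin of microfibrils, stood at 833, 877 and 894 CPM against 197 to 219 CPM in the Meox1/Cdkn2b cells (2.20 ± 0.04, adjusted p = 2.9e-26).

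Collagen genes depended on the comparator. Against the other Col1a2 cells 10 of 19 were higher, Col1a1 among them, and 7 lower, with a median log2 change of 0.23 that became -0.02 with library size scaling. Of 18 tested against the Meox1/Cdkn2b cells, 13 were lower and 5 higher (Col3a1, Col5a3, Col12a1, Col14a1 and Col16a1), with a median log2 change of -0.46. Of 17 tested against the Lypd2/Itgb4/Cldn1 cells, 9 were lower, 3 higher and 5 not called, with a median of -0.19. Col1a1, a chain of the main fibrillar collagen, stood at 8654, 8039 and 9151 CPM against 12366 to 12932 and 12607 to 13246 CPM (-0.40 ± 0.02 and -0.44 ± 0.03, adjusted p = 8.3e-16 and 5.8e-17). Col3a1, which forms the finer fibrils of soft tissue, was slightly higher, at 8637, 8318 and 8871 CPM against 7651 to 8319 and 7882 to 8507 CPM, ranges that touch those of the epineurial fibroblasts. The changes of these abundant genes were of a fold of 1.16 to 1.35.

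Small leucine-rich proteoglycans, which bind collagen fibrils, were divided. Aspn (asporin) stood at 2244, 2159.6 and 2164 CPM against 213 to 264 CPM in the Meox1/Cdkn2b cells and 1024 to 1054 CPM in the Lypd2/Itgb4/Cldn1 cells (3.36 ± 0.04 and 1.23 ± 0.04, adjusted p = 5.6e-32 and 8e-31). Lum (lumican) lay between the comparators at 1222, 1319.6 and 1331 CPM, below the 2159 to 2222 CPM of the former and above the 191 to 242 CPM of the latter. Ogn stood at 509 to 531 CPM against 546 to 589 CPM in the Meox1/Cdkn2b cells and was not called. In all, 3 of 8 were higher and 3 lower against the Meox1/Cdkn2b cells, and 3 of 9 higher and 4 lower against the Lypd2/Itgb4/Cldn1 cells.

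Genes for hyaluronan, the water-binding polymer of loose connective tissue, were mostly higher (7 of 8 against the Meox1/Cdkn2b cells and 5 of 8 against the Lypd2/Itgb4/Cldn1 cells, with Hyal2 lower in both). Tnfaip6, which links hyaluronan to proteins, stood at 159, 169 and 174 CPM against 74.1 to 81.5 and 10.6 to 15.6 CPM. Vcan, the hyaluronan-binding proteoglycan versican, stood at 392, 411 and 370.0 CPM against 88.0 to 113 and 144 to 155 CPM. The groups did not overlap for either gene. Among matrix processing genes, 7 of 14 and 8 of 14 were higher and 4 and 3 lower. Over all genes 26.4% and 19.6% were higher and 26.4% and 19.1% lower, so the lower counts lay near those shares. Htra3, a secreted serine protease, stood at 493, 551 and 554 CPM against 74.4 to 95.5 CPM in the Lypd2/Itgb4/Cldn1 cells (2.81 ± 0.07, adjusted p = 1.3e-37), whereas Serpine2, a protease inhibitor, stood at 106 to 144 CPM against 593 to 661 CPM in the Meox1/Cdkn2b cells (-2.16 ± 0.08, adjusted p = 1.1e-09).

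Ligands and modulators of the Wnt pathway followed. Of 14 tested against the Meox1/Cdkn2b cells, 11 were higher and 3 lower (Sfrp5, Dkk3 and Lef1), and of 13 tested against the Lypd2/Itgb4/Cldn1 cells, 8 were higher and 5 lower (Sfrp1, Sfrp5, Dkk3, Wnt5a and Rspo1). Wnt2, Wnt11, Rspo2, Rspo3 and Dkk2 were higher in both, with Sfrp2, Sfrp4 and the feedback inhibitor Nkd1. Sfrp2 and Sfrp4 had been named for these cells from the same data, so their place in these counts is no support. Other members of the Sfrp family differed in direction. Sfrp1 stood at 169, 144 and 163 CPM, above the 30.2 to 37.3 CPM of the Meox1/Cdkn2b cells and below the 323 to 347 CPM of the Lypd2/Itgb4/Cldn1 cells. Sfrp5 stood at 4.56 to 7.36 CPM against 397 to 539 CPM in the latter (-6.18 ± 0.11, adjusted p = 3.2e-42).

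Of the TGF-beta and BMP pathway genes, 13 of 20 were higher and 3 lower against the Meox1/Cdkn2b cells, and 10 of 20 higher and 5 lower against the Lypd2/Itgb4/Cldn1 cells. Fst (follistatin), a secreted activin inhibitor, stood at 403, 401 and 474 CPM against 10.2 to 15.5 and 16.4 to 29.1 CPM (5.19 ± 0.09 and 4.51 ± 0.14, adjusted p = 1.8e-27 and 4.6e-11). The related Fstl1 stood at 2407, 2323 and 2289.95 CPM against 1042 to 1127 CPM in the Meox1/Cdkn2b cells. Tgfbi, a matrix protein induced by TGF-beta, was lower in both comparisons and stood at 142, 130.3 and 147 CPM against 2289 to 2325 CPM in the Meox1/Cdkn2b cells. Fst and Tgfbi thus lay on opposite sides with no overlap.

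A list of 19 genes held imprinted genes and those of the insulin-like growth factor system. Against the Meox1/Cdkn2b cells 16 were higher (median 0.98), Igfbp2 and Igfbp7 lower and Peg3 not called. Against the Lypd2/Itgb4/Cldn1 cells 13 were higher (median 0.56), Igfbp5, Igfbp6 and Igfbp7 lower, and Igfbp2, Igfbp4 and Igf1r not called. Dlk1, a Notch-related surface protein of fetal mesenchyme on chr12:109452823-109463336, stood at 10094, 10425 and 10068 CPM against 5613 to 5833 and 5717 to 6115 CPM. H19, an imprinted noncoding RNA, stood at 5703, 5753 and 5701 CPM against 2109 to 2213 and 2619 to 2751 CPM, and Meg3, from the same cluster as Dlk1, at 10325, 11245 and 11055 CPM against 5633 to 6263 and 6283 to 7408 CPM. No library of a comparator reached the epineurial fibroblasts for these 3 genes. Adjusted p-values were 2e-25 or lower.

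Growth factor ligands were higher in 14 of 17 cases against the Meox1/Cdkn2b cells and in 11 of 15 against the Lypd2/Itgb4/Cldn1 cells. Angptl1, an angiopoietin-like secreted protein, stood at 299, 295 and 242 CPM against 14.02 to 35.3 and 17.7 to 24.6 CPM. Fgf7, a fibroblast growth factor that acts on epithelia, stood at 121, 102 and 102 CPM against 7.18 to 9.03 CPM in the Meox1/Cdkn2b cells (3.91 ± 0.13, adjusted p = 3.7e-21). Both genes were higher in 3 of 3 libraries. Among axon guidance genes Sema3c, a secreted semaphorin, stood at 390.0, 435 and 418 CPM against 16.4 to 17.5 and 122 to 142 CPM against the Meox1/Cdkn2b and the Lypd2/Itgb4/Cldn1 cells. Of that list 7 of 12 were higher and 3 lower (Nrp2, Plxnd1 and Efna5) against the former. Against the latter 3 of 13 were higher and 4 lower (Slit3, Nrp1, Nrp2 and Ephb2), with a median of -0.33, beside 19.6% higher and 19.1% lower among all genes.

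Chemokines separated these cells from the Meox1/Cdkn2b cells by lower levels. Ccl11, the eosinophil attractant eotaxin, stood at 23.3, 29.5 and 35.2 CPM against 1697 to 1914 CPM there and 166 to 232 CPM in the Lypd2/Itgb4/Cldn1 cells (-5.78 ± 0.06 and -2.67 ± 0.10, adjusted p = 2.2e-33 and 3.1e-27). Cxcl12, which retains leukocytes and progenitors, stood at 107 to 151 CPM against 563 to 572 CPM. Ccl2, Ccl7 and Cxcl1 were lower against the Meox1/Cdkn2b cells as well. The complement genes C1s1, C1ra, C4b and Serping1, with Cd55, Cxcl14 and Il33, were higher. Against the Lypd2/Itgb4/Cldn1 cells 6 of 15 genes of this list were higher and 3 lower.

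Transcription factors were divided, with 11 of 19 higher and 7 lower against the Meox1/Cdkn2b cells, and 10 of 19 higher and 5 lower against the Lypd2/Itgb4/Cldn1 cells. Klf4, a zinc finger factor, stood at 401, 379 and 501 CPM against 50.6 to 63.2 and 139.9 to 181 CPM (3.12 ± 0.09 and 1.54 ± 0.07, adjusted p = 1.9e-12 and 1.2e-25). Tcf4 stood at 79.6 to 84.1 CPM against 408 to 472 CPM in the Meox1/Cdkn2b cells, and Meox2 at 127 to 139 CPM against 407 to 458 CPM in the Lypd2/Itgb4/Cldn1 cells. These factors separated the groups with no overlap. Of 12 genes induced by dissociation, 3 were higher and 6 lower against the Meox1/Cdkn2b cells and 6 higher and 2 lower against the Lypd2/Itgb4/Cldn1 cells, and their part in these values was not tested. Osr1, Twist2, Prrx1, Prrx2, Klf2, Creb5, Ebf1 and Ebf3 were higher in both, and Foxp2 and Sox9 lower in both. In the retinoid list Rbp4 (retinol-binding protein) stood at 69.1, 53.9 and 49.3 CPM against 3.92 to 5.70 CPM in both comparators, while Crabp2 stood at 12.0 to 16.5 CPM against 219 to 239 CPM in the Lypd2/Itgb4/Cldn1 cells.

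**Figure D2:**
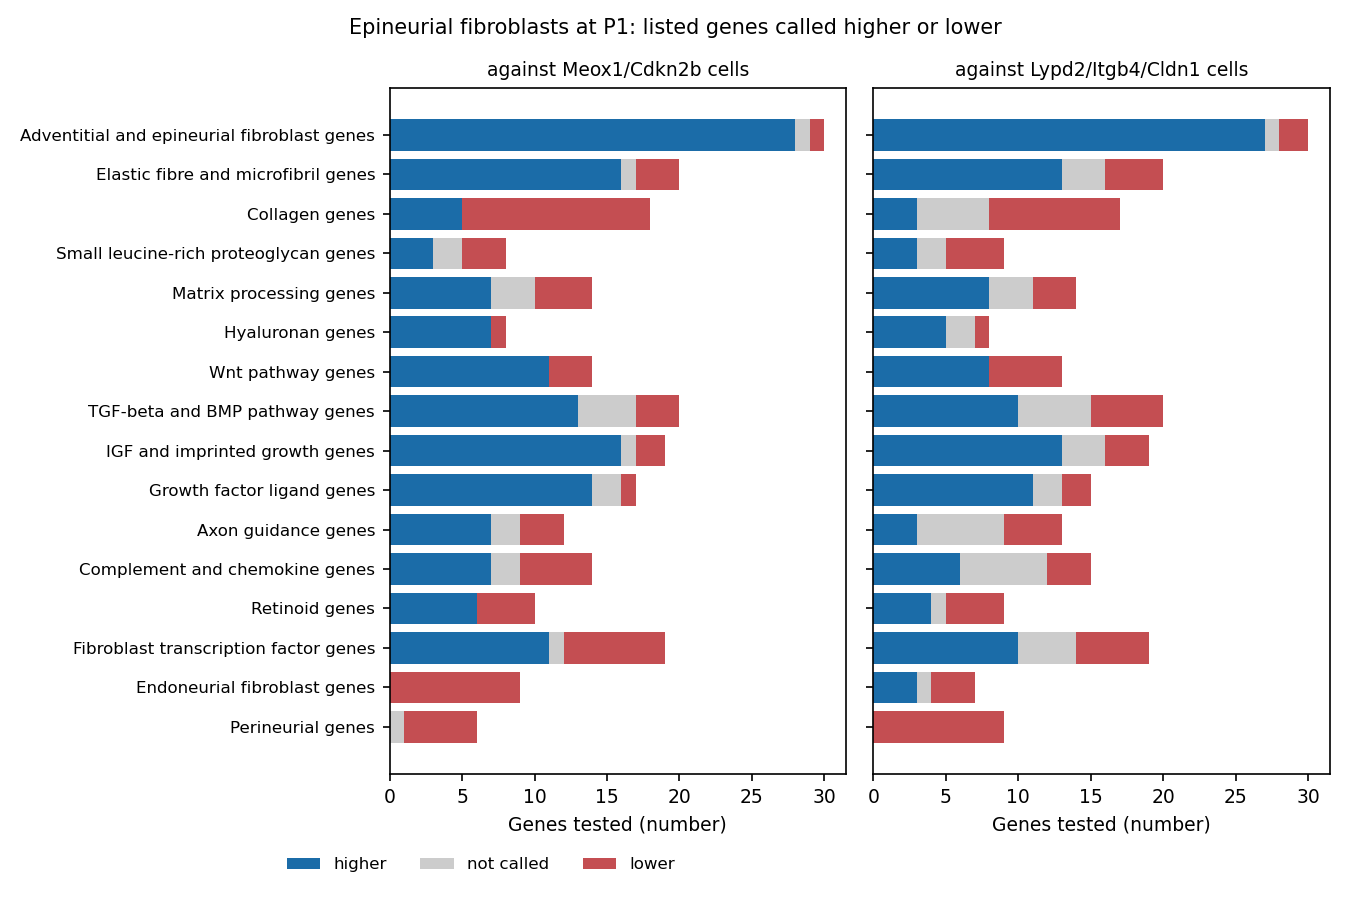
Number of tested genes of 16 lists called higher (blue) or lower (red) in P1 epineurial fibroblasts, or not called (grey), at an adjusted p under 0.05, against the Meox1/Cdkn2b cells (left) and the Lypd2/Itgb4/Cldn1 cells (right). Of 30 adventitial genes 28 and 27 were higher, and of 18 and 17 collagen genes 13 and 9 were lower, beside 26.4% and 19.6% of all genes higher. The median of the retinoid list on the right changes sign with library size in place of TMM scaling.

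All 9 tested endoneurial genes were lower in epineurial fibroblasts than in the Meox1/Cdkn2b cells. All 9 tested perineurial genes were lower than in the Lypd2/Itgb4/Cldn1 cells. Both comparators were chosen by genes that the rule excluded or limited in epineurial fibroblasts, so nothing about the label is read from these counts. Against the Lypd2/Itgb4/Cldn1 cells 3 of 7 endoneurial genes were higher (Osr2, Abca9 and Apod) and 3 lower (Sox9, Etv1 and P2ry14), and the sum over the list of 10 was 304 to 332 CPM against 265 to 289.9 CPM. Osr2, a zinc finger factor, stood at 87.5, 90.7 and 99.9 CPM, between the 209 to 226 CPM of the Meox1/Cdkn2b cells and the 13.5 to 17.2 CPM of the Lypd2/Itgb4/Cldn1 cells. Sox9 stood at 8.27, 10.1 and 7.04 CPM against 196, 213 and 225 CPM (-4.50 ± 0.12, adjusted p = 2.3e-23). Spink1 had 0 UMIs in all 3 epineurial sums and stood at 43.2, 36.9 and 43.5 CPM in the Lypd2/Itgb4/Cldn1 cells, at least 91.8-fold higher there against a floor of 3 counts over the group. Gcg, the proglucagon gene, had 1 UMI in all, against 67.2 to 81.0 CPM in the Meox1/Cdkn2b cells (ratio 476, 95% exact counting interval 85.2 to 18820). Foxc2 stood at 0.921 to 1.46 CPM against 47.5 to 74.9 CPM in the Lypd2/Itgb4/Cldn1 cells.

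Cells with and without Pi16 were then set side by side within the epineurial fibroblasts, 723 with at least 1 Pi16 UMI and 293 with none. Pi16 belongs to the selection rule, so the latter entered through Dpt and Ly6a alone, and the groups differ by how they were selected. The part of this selection in the differences was not tested. A count of 0 can also be a missed molecule, since after thinning to 3000 UMIs 81.9% of the former still had a Pi16 UMI. Median depth was close, at 6653.5, 6139 and 6475 UMIs with Pi16 and 5936, 5959 and 6505.5 without. Of 8059 genes tested, 205 (2.54%) were higher with Pi16 and 118 (1.46%) lower, 4.01% in all, and libraries did not overlap for 9.15% on the higher and 8.85% on the lower side. The total fell from 323 to 211 without replicate 1 and to 202 without replicate 2. In 21 of the 30 adventitial genes the level was higher with Pi16, but Sfrp2 and Sfrp4 were lower. DESeq2 called 13 of the 30 higher. The level of Plac8 was 569, 659 and 701 CPM with Pi16 and 465, 634 and 610 CPM without, and was not called.

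Genes higher with Pi16 included Fbn1 at 962, 1041 and 1023 CPM against 449, 473 and 562 CPM (log2 change 1.04 ± 0.06, adjusted p = 3.9e-13) and Mfap5 at 3042, 3432 and 3268 CPM against 1713, 1593 and 1761 CPM (0.96 ± 0.05, adjusted p = 5e-15). Cd55, a membrane inhibitor of complement, stood at 114, 118 and 115 CPM against 40.7, 23.9 and 31.1 CPM (1.89 ± 0.17, adjusted p = 5.3e-09). Sema3c stood at 454, 515 and 479 CPM against 199, 238 and 263 CPM. Each was higher in 3 of 3 libraries with no overlap, and 9 of 20 elastic fibre genes were higher.

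Enzymes of lipid signals also stood out. Ptgs1 (cyclooxygenase-1), which makes prostaglandins, stood at 36.4, 44.0 and 41.4 CPM against 9.68, 7.98 and 4.44 CPM (2.51 ± 0.32, adjusted p = 2.4e-06). Aldh1a3, which makes retinoic acid, stood at 54.6, 47.9 and 41.4 CPM against 7.74, 3.19 and 10.4 CPM, and Bmp7, a bone morphogenetic protein, at 35.1, 38.2 and 39.1 CPM against 9.68, 4.79 and 1.48 CPM. Akr1c18 was found in 85 of 723 cells with Pi16 (11.8%) and 3 of 293 without (1.02%). The log2 change of Akr1c18 was 4.07 ± 0.53 (adjusted p = 0.018), and it was not called with DESeq2 or without the library as a block.

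Genes higher without Pi16 included Igfbp2, an IGF-binding protein, at 120.0, 136 and 88.8 CPM against 7.79, 5.17 and 6.33 CPM (-4.11 ± 0.22, adjusted p = 2.6e-14). It was found in 37 of 293 cells without Pi16 (12.6%) and 23 of 723 with Pi16 (3.18%), a small share in both. Tnc (tenascin-C, a matrix protein of remodelling tissue) stood at 48.4, 51.1 and 35.5 CPM against 13.0, 7.11 and 4.60 CPM. The proteoglycan Bgn stood at 1218, 1357 and 1261 CPM against 888, 814 and 794 CPM (-0.61 ± 0.05, adjusted p = 3.1e-09), and Cxcl12 at 213, 140.5 and 284 CPM against 109, 93.8 and 99.0 CPM.

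Sfrp4 stood at 765, 795 and 549 CPM without Pi16 and 550.1, 435 and 371 CPM with it (-0.63 ± 0.07, adjusted p = 2.8e-07), lower with Pi16 within each library though the ranges overlap by a narrow margin. Sfrp2 stood at 674, 733 and 564 CPM against 538, 511 and 497 CPM (-0.33 ± 0.07, adjusted p = 0.0019), a call lost without replicate 2. Of the lipid-handling genes, Lpl (lipoprotein lipase) stood at 625, 859 and 843 CPM without Pi16 against 539.7, 608 and 594 CPM with it (-0.40 ± 0.06, adjusted p = 6.2e-05). Of 6 Schwann cell genes tested 4 were also higher with Pi16, Mbp and Egfl8 among them, as were the immune genes Tyrobp and C1qb, the call of C1qb being lost without replicate 2. Mbp stood at 368, 188 and 157 CPM with Pi16 and 120.0, 81.4 and 59.2 CPM without, while the median cell of both groups held 0 Mbp UMIs and 10 cells held 65.0% of the UMIs with Pi16 and 36.6% without. The call of Mbp was lost without the library as a block. Summed immune genes reached 371.2 CPM with Pi16 in replicate 2. Their part in the differences was not tested.

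**Figure D3:**
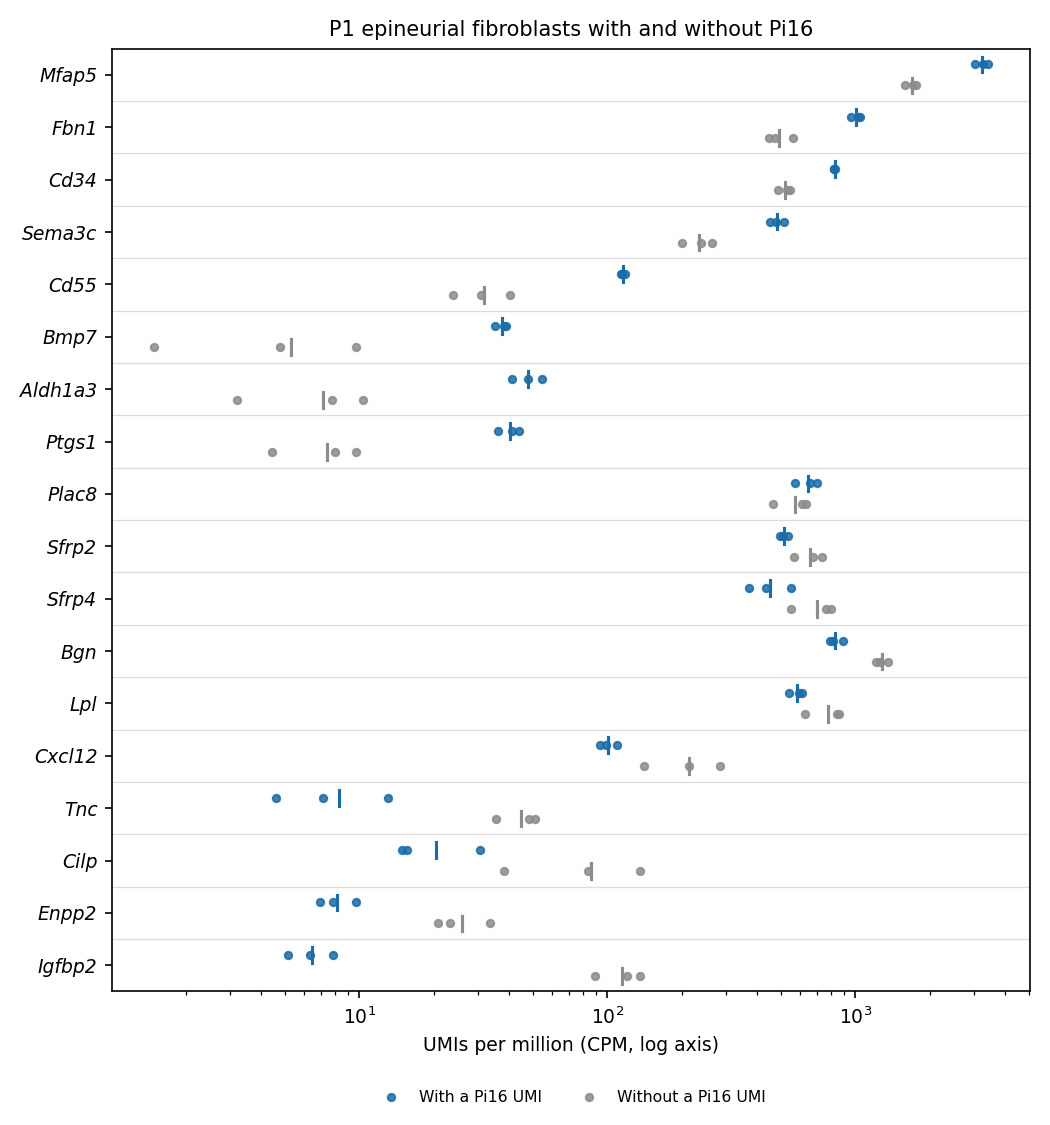
CPM (log axis) of 18 genes in P1 epineurial fibroblasts with a Pi16 UMI (blue) and without one (grey), with a point per library and a tick at the mean of the 3 libraries. From Mfap5 to Ptgs1 the blue points lie to the right of the grey points, Plac8 overlaps, and Bgn, Cxcl12, Tnc, Cilp, Enpp2 and Igfbp2 lie to the left.

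Dividing counterparts met every condition except that they had Mki67 or Top2a, and numbered 25, 21 and 28 cells. Of 8305 genes 214 (2.58%) were higher and 73 (0.879%) lower in them, 3.46% in all, and the split was 234 and 31 with library size in place of TMM scaling. Libraries did not overlap for 12.8% on the higher and 8.85% on the lower side. The higher genes were led by cell cycle genes, which the split fixes. Ly6c1 was 307, 328 and 358 CPM in the dividing cells and 391, 397 and 387 CPM in the cells without these genes, and Sfrp4 was 454, 452 and 402 CPM against 604, 539 and 421 CPM, neither of them called. Of the 30 adventitial genes 7 were lower with edgeR, 4 with library size scaling and 0 with DESeq2, at a median log2 change of -0.39, -0.32 and -0.38. H19 stood at 3843, 4405 and 5045 CPM against 5703, 5753 and 5701 CPM (-0.46 ± 0.07, adjusted p = 0.00023), and Ogn at 263, 316 and 380 CPM against 531, 514 and 509 CPM (-0.77 ± 0.13, adjusted p = 0.00089). Summed immune genes reached 1952 CPM in the dividing cells of replicate 3, against 18.6 to 39.0 CPM in the others, and their part was not tested.

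Last, the rule was applied to the P60 libraries, where it took 1108, 1248 and 1065 cells. They made up 57.6%, 57.0% and 52.0% of the P60 cells with at least 5 Col1a2 UMIs, against 11.4%, 10.96% and 11.4% at P1 (means 55.5% ± 3.09 and 11.2% ± 0.241). The 95% exact binomial interval of each library cleared those of the other age, but these intervals count cells and cover counting error only. They do not measure the spread between libraries or animals. After thinning to 3000 UMIs the means were 69.7% ± 1.32 and 13.8% ± 0.395. An exact two-sided permutation test of 3 against 3 libraries gave p = 0.1, the smallest it can give. Shares of all cells were 27.6% ± 4.51 and 8.67% ± 0.381, but the P1 sort had removed Schwann cells, so that share depends on the sort. The share of Col1a2 cells can depend on it too, since 29.5% of the other Col1a2 cells at P1 had Sox10, Pecam1 or Ptprc. How far it does was not tested. Pi16 itself stood at 3890.0, 4168 and 3346 CPM in the P60 cells, and all 3 selecting genes were found together in 78.2% ± 2.33 of them against 46.8% ± 3.22 at P1.

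**Figure D4:**
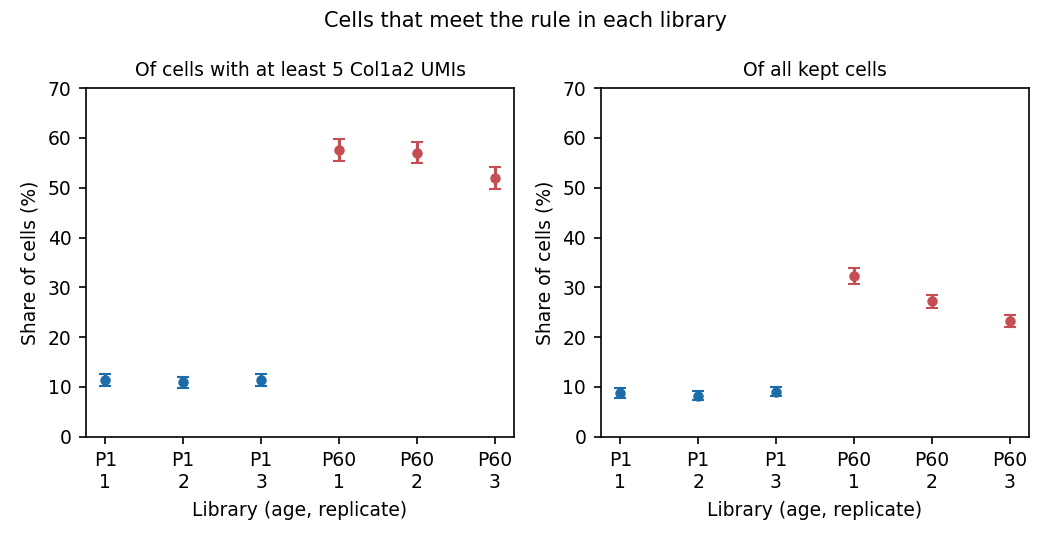
Share of cells (%) that met the rule in each library, of cells with at least 5 Col1a2 UMIs (left) and of all kept cells (right), with 95% exact binomial intervals that cover counting error only. The P1 libraries sit at 10.96% to 11.4% on the left and the P60 libraries at 52.0% to 57.6%.

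Between the ages, 2453 of 11479 genes (21.4%) were higher at P60 and 2262 (19.7%) higher at P1, 41.1% in all, and libraries did not overlap for 29.2% and 24.9%. All counts of listed genes by age are to be read beside these shares. Of the 19 genes of growth and imprinting, 13 were higher at P1, 4 were higher at P60 (Igfbp4, Igfbp5, Igfbp6 and Igfbp7) and 2 were not called (Igfbp3 and Igf1r), with a median log2 change (P60 minus P1) of -1.31, beside 0.03 over all genes. Dlk1 stood at 10094, 10425 and 10068 CPM at P1 and 5.51, 8.30 and 3.32 CPM at P60 (-10.79 ± 0.26, adjusted p = 4.6e-09). Mest, an imprinted enzyme gene, stood at 2019, 2029.8 and 1893 CPM against 38.9, 40.2 and 26.3 CPM, and H19 at 5701 to 5753 CPM against 63.8 to 151 CPM. No P60 library came near a P1 library for these. Igf2 stood at 46.0 to 51.6 CPM against 0 to 0.580 CPM, but a gene overlapping it on the same strand leaves its count uncertain.

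Agtr2, the angiotensin type 2 receptor gene of fetal mesenchyme, stood at 952, 1097 and 1074 CPM against 5.66 to 9.28 CPM (-7.13 ± 0.17, adjusted p = 6.4e-11). Nrk, a kinase gene, stood at 418, 429 and 493 CPM against 3.19 to 6.24 CPM, and Klf14 at 40.2 to 41.4 CPM against 0.390 to 0.725 CPM. Fbn2, the fibrillin of developing tissue, stood at 327, 346 and 357 CPM against 1.04 to 2.32 CPM (-7.66 ± 0.20, adjusted p = 8.6e-11), whereas Fbn1 stood at 833 to 894 CPM against 889 to 1107 CPM and was not called. The 2 fibrillin genes thus differed in their course. Of 20 elastic fibre genes 7 were lower at P60 (Eln, Fbn2, Mfap2, Mfap4, Emilin1, Ltbp2 and Lox), 7 were higher (Fbln1, Fbln2, Emilin2, Efemp1, Ltbp1, Ltbp3 and Ltbp4) and 6 were not called, with a median of 0.04. Mfap2 stood at 229 to 303 CPM against 1674 to 1702 CPM, and Fbln2 at 544 to 617 CPM against 328 to 371 CPM.

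Collagen genes were lower at P60 in 12 of 17 cases, with a median of -0.65. Col1a1 stood at 1935 to 2714 CPM against 8039 to 9151 CPM (-1.91 ± 0.11, adjusted p = 1.2e-07). The proteoglycans that bind collagen were mostly higher, in 6 of 9 cases. Dcn (decorin) stood at 18942, 17163 and 13714 CPM against 6027, 6317 and 6195 CPM (1.39 ± 0.11, adjusted p = 7.8e-07), and Aspn went the other way at 829 to 1023 CPM against 2159.6 to 2244 CPM. Among hyaluronan genes 4 of 8 were lower and Ugdh was higher, with Vcan at 125 to 175 CPM against 370.0 to 411 CPM.

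Complement and chemokine genes were higher at P60 in 13 of 17 cases, with a median of 2.32 and Cxcl1 alone lower. C3, the central complement component, stood at 1122, 1113 and 1212 CPM against 1.95, 1.84 and 0.829 CPM (9.51 ± 0.19, adjusted p = 1.9e-11). Serping1, the C1 inhibitor gene, stood at 2003 to 3137 CPM against 524 to 536 CPM. No P1 library reached a P60 library for either gene. Ccl11, low at P1, stood at 738, 751 and 746 CPM against 23.3, 29.5 and 35.2 CPM (4.63 ± 0.14, adjusted p = 4e-10). Cxcl13, a B cell attractant, had 3 UMIs at P1 and stood at 384 to 604 CPM at P60 (ratio 1008, 95% exact counting interval 345 to 4889).

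Of the 30 adventitial genes 24 were higher at P60, with a median of 1.18, and Wnt2 and Bmp7 were lower. Without P60 replicate 3 the counts were 25 and 4. Pcolce2 stood at 826, 872 and 841 CPM against 37.0, 24.9 and 46.8 CPM (4.51 ± 0.18, adjusted p = 4e-09), Ly6c1 at 1786, 1927 and 1321 CPM against 387 to 397 CPM, and Sfrp4 at 3277, 2849 and 1693 CPM against 421 to 604 CPM. Plac8 stood at 618, 649.7 and 764 CPM against 543, 652 and 675 CPM and Mfap5 at 2635 to 3168 CPM against 2708 to 2902 CPM, and neither was called, though Mfap5 was called without P60 replicate 3. Myoc, Pla1a, Ifi205 and Inmt were among the 10 genes with the highest log2 change, Myoc (myocilin, a secreted glycoprotein) at 986 to 1474 CPM against 3.68 to 9.53 CPM.

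The P60 cells of the rule also carried more RNA of genes listed for other connective tissue cells. Summed endoneurial fibroblast genes stood at 797 to 1458 CPM, against 304 to 332 CPM at P1. Summed perineurial genes stood at 106 to 132 CPM against 29.2 to 34.8 CPM, and summed tendon genes at 121 to 358 CPM against 26.7 to 45.6 CPM. All 7 perineurial and all 3 tendon genes tested were higher at P60, though Ntn4 and Tnmd lost their calls when any P1 library was left out. Comp and Prg4, genes of tendon and joint tissue, were among the 10 highest, Prg4 at 63.4, 54.6 and 25.9 CPM with 0 UMIs at P1, at least 110.7-fold higher against a floor of 3 counts. Of 13 genes induced by dissociation, 7 were lower at P60 and Hspa1b was higher, Fos standing at 701 to 1223 CPM against 2146 to 2449.9 CPM. Summed Schwann cell genes stood at 111 to 121 CPM at P60, against 668 to 1252 CPM at P1. The part of these in the age differences was not tested.

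**Figure D5:**
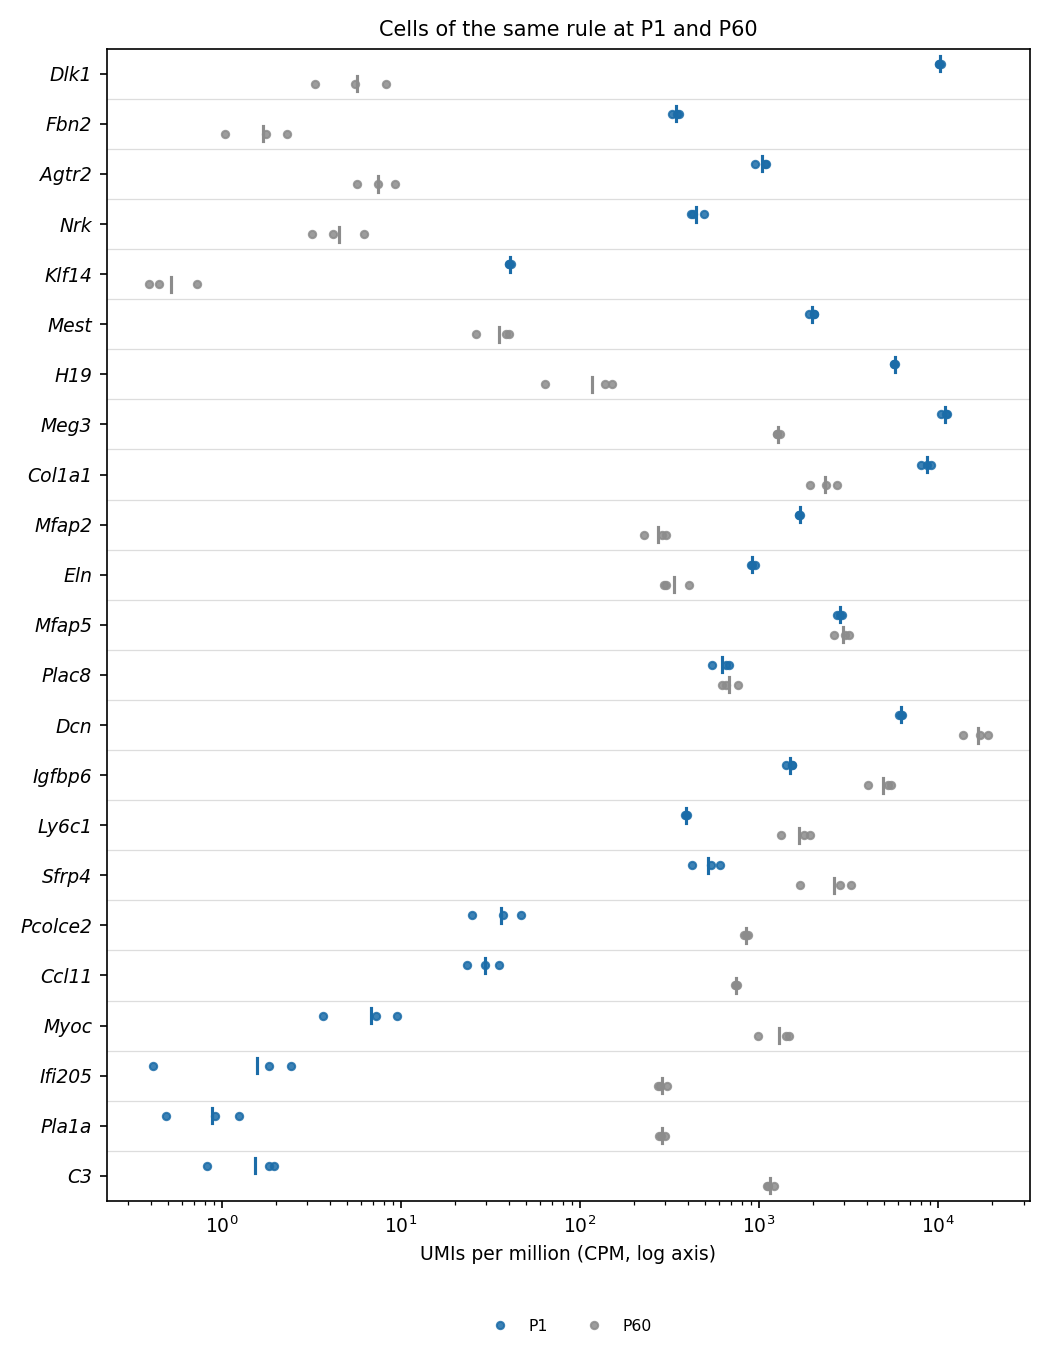
CPM (log axis) of 23 genes in cells of the same rule at P1 (blue) and P60 (grey), with a point per library and a tick at the mean of the 3 libraries. Dlk1 falls from 10068 to 10425 CPM at P1 to 3.32 to 8.30 CPM at P60, C3 rises from 0.829 to 1.95 CPM to 1113 to 1212 CPM, and Mfap5 and Plac8 overlap.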

How the data were processed

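The authors deposited raw UMI counts per gene and barcode for 6 libraries (10x Chromium 3' v2 chemistry), with no normalization. Per the labels, Cell Ranger 2.0.2 and GRCm38.p5 were used, whereas the methods name a human build. Whether counting used the strand is not given in the sources used here. Barcodes with 500 to 5000 genes were kept, no doublet caller was run, and only the gene limit and the conditions on Sox10, Pecam1 and Ptprc removed mixed cells. UMIs were summed per library and cell group and tested with edgeR 4.0.16 (quasi-likelihood, TMM, filterByExpr, Benjamini-Hochberg adjusted p under 0.05; R 4.3.3), with the library as a block within P1 and no block between ages. The 14 genes of the rule were left out of every test. Exact counting intervals of ratios pool UMIs over libraries and take each UMI as independent, so they cover counting error only. SE is that of the log2 change, computed back from the test as the size of the change divided by the square root of the quasi-likelihood F statistic. It is therefore not a measure of spread independent of the p-value. Alternatives included DESeq2 1.42.0, library size scaling, no filter, thinning to 3000 UMIs, other thresholds and leaving out each library. The fits were tested on simulated counts.

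Named genes were those with the largest changes at a mean of at least 20 CPM and 1 direction in every library, the markers, and the most expressed genes of 26 lists. The members and lists were chosen with earlier results of these data known. Each library pooled animals. Within P1 the p-values measure how steady a difference between cell groups was across libraries. Between ages they set the difference against the spread between libraries. Coordinates are from GENCODE M21 (GRCm38), in which 41519 of 41605 gene identifiers were found. Of 167 named genes, 24 overlap another gene on the same strand and 56 on the opposite strand, so their counts are uncertain. A few genes are not reported here.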

Additional observations from a re-analysis of the deposited data

How the results depend on the processing

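The rule reads raw UMIs, so its members depend on depth. Their share of P1 Col1a2 cells was 11.2% (11.2% to 11.4% when a library was left out), 12.1% with a sum of at least 3, 9.85% with at least 6, 12.7% in cells under 10% mitochondrial UMIs and 13.8% after thinning. Without thinning, shares of cells with a UMI were 72.4% for Sfrp2, 63.3% for Sfrp4, 73.9% for Plac8, 68.9% for Ly6c1 and 15.3% for Pcolce2. Calls that also needed a 2-fold change numbered 3289 against the other Col1a2 cells, 2200 against the Meox1/Cdkn2b cells, 1356 against the Lypd2/Itgb4/Cldn1 cells, 85 by Pi16, 189 for the dividing cells and 2275 by age, as a stricter rule must give fewer. DESeq2 gave 3154, 1871, 89 and 164 in the 2nd to 5th of these, and thinning 3728, 2337, 174 and 90, with fewer UMIs. For the dividing cells, no low-count filter gave 526 calls and Pi16 plus Dpt of at least 3 gave 189. Leaving out a replicate gave 5944 to 6734, 4920 to 5164, 3263 to 3541, 202 to 316, 193 to 335 and 3718 to 5732 calls in the 6 comparisons. With the replicate number as a block the age comparison gave 4855 calls. Deviations of same-numbered P1 and P60 libraries correlated at 0.039, 0.122 and 0.110, so the numbers were not taken to pair them. Without the replicate block the P1 comparisons gave 7478, 5718, 3746, 292 and 339 calls. Col1a1 against the other Col1a2 cells went from 0.23 to -0.025 with library size scaling, to -0.16 against cells without Mki67, Top2a, Sox10, Pecam1 or Ptprc, and to -0.37 against those of them with Pdgfra, a comparator chosen after the data were seen. There Osr2 became -0.46, and Osr2 was -0.038 against the former. The cause was not tested. Of all values for single genes under the alternatives, 2774 kept their side of the threshold, 118 lost a call, 16 gained one and 5 reversed. Other sum thresholds could not be applied to the Meox1/Cdkn2b and Lypd2/Itgb4/Cldn1 comparisons, whose comparators need a low sum.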
